A study of Mus musculus with 12 samples.

Results

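Untreated colon mucosa was compared between mice that carried bone marrow without Muc1 and mice that carried wild-type bone marrow. The comparison used 6 of the 12 arrays of the series, chosen by their labels alone: 3 mice of the group WT_untreated and 3 of the group KO_untreated. All recipients were wild-type C57BL/6 mice. WT_untreated mice had received C57BL/6 wild-type donor marrow, and KO_untreated mice had received C57BL/6 marrow from Muc1 knockout donors. None of the 6 had received azoxymethane or dextran sodium sulfate, which the other 6 mice received to induce colitis-associated tumours. The labels used here give no age, sex or time after the marrow transfer. As a model, the KO group lacks Muc1 only in cells that descend from the marrow, while the epithelium of the recipient keeps the gene. The mucosa of 1 colon was scraped for each array, so each value is the sum over epithelium, immune cells and underlying tissue. In such whole tissue, fewer cells of a type and less RNA per cell cannot be told apart.

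Muc1 encodes a membrane-bound mucin of epithelial surfaces that is also made by some blood-forming cells. Its cytoplasmic tail takes part in signalling. The colon lining is built of absorptive colonocytes, mucus-secreting goblet cells and hormone-secreting enteroendocrine cells, above a layer that holds T cells, B cells, plasma cells, macrophages and mast cells. After a marrow transfer the blood-derived cells of that layer are largely replaced by cells of the donor.

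RNA was measured on single-colour arrays, with 1 mouse per array, and a level below is the log2 signal relative to the 75th percentile of its own array. A level of 0 is therefore the signal that 75% of gene spots do not exceed. The 75th percentile was between 332 and 679.3 signal units on the 6 arrays, and 0 spots were saturated. Between 58.44% and 77.77% of gene spots were well above background, with the lowest share on KO_untreated 2. The slide barcodes put all 3 WT_untreated arrays and KO_untreated 1 on slide 1, and KO_untreated 2 and 3 on slide 2. A comparison within 1 slide could therefore be made only for KO_untreated 1 against the 3 WT mice, and it is given beside the results described most closely. All 6 arrays were scanned on the same day.

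The profile of KO_untreated 1 correlated best with WT_untreated 3, on its own slide (r = 0.986 across genes, which are not independent replicates). KO_untreated 2 and 3 correlated with each other at 0.987. The arrays did not divide cleanly by slide: WT_untreated 3 correlated with KO_untreated 2 and 3 at 0.969 and 0.967, and with WT_untreated 1 and 2 of its own slide at 0.966 and 0.961. When genes were divided into 4 equal bins by mean level, the dimmest bin had a median difference from the WT mean of -1.67 in KO_untreated 2 and -1.70 in KO_untreated 3, but of -0.06 in KO_untreated 1. In the brightest bin the same medians were -0.01, 0.08 and 0.13. Among the WT mice the dimmest bin had medians of 0.30, 0.15 and -0.46, so WT_untreated 3 was also low for dim genes, by less than the KO mice of slide 2. KO_untreated 1 lay within the range of the WT mice in that bin. For those 2 mice, slide and marrow cannot be told apart.

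**Figure D1:**
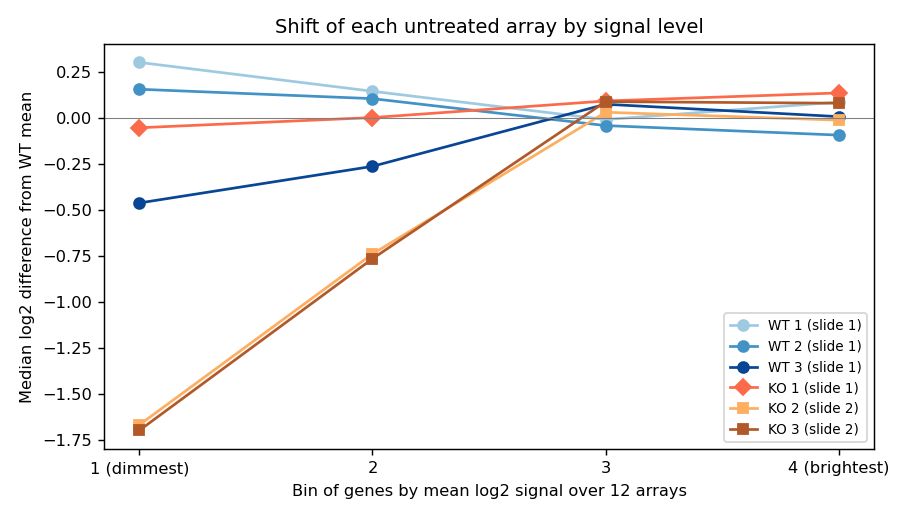
The plot gives the median log2 difference of each untreated array from the mean of the 3 WT arrays (vertical axis) for 4 equal bins of genes ordered by mean log2 signal over the 12 arrays of the series (horizontal axis). KO 2 and KO 3, on slide 2, lie at -1.67 and -1.70 in the dimmest bin, and WT 3 at -0.46 is the lowest array of slide 1 there, and all 6 arrays lie near 0 in the brightest bin.

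The tissue showed the genes that define colon mucosa in every mouse. Car1, a carbonic anhydrase of colonocytes, had levels of 6.19 to 6.45 in WT mice and 6.90 to 7.37 in KO mice. Aqp8, a water channel of the colon surface, was between 8.77 and 9.53 in all 6 mice. The goblet cell genes Zg16 and Clca1 were between 8.91 and 10.05.

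Muc1 itself was measured by 2 probes, which went in opposite directions. The brighter probe had levels of -1.50, -1.72 and -2.25 in the WT mice and -2.12, -2.90 and -3.80 in the KO mice. The groups overlapped, since KO_untreated 1 lay above WT_untreated 3, and the difference was -1.11 ± 0.60 (SE, adjusted p = 0.425). Within slide 1 the difference was -0.30. The dimmer probe, above background on 5 of the 6 arrays, read -4.55, -6.01 and -4.06 in the WT mice and -3.78, -3.23 and -3.96 in the KO mice. Here all KO mice lay above all WT mice, by 1.22 on average. The mean of both probes differed by 0.05. Because the recipient's epithelium keeps the gene, and the files do not say which part of Muc1 is deleted, neither probe checks the marrow label. Of 20 measured chromosomal neighbours of Muc1, no gene lay higher in all KO mice and Efna4 alone lay lower in all of them. Among all genes 6.15% lay higher and 6.55% lower. The median difference of these neighbours was -0.02, against -0.18 over all genes and 0.07 over the brightest of the 4 bins.

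The sex-linked genes did not separate the groups. Xist had levels of -0.90, -0.10 and -0.64 in WT mice and -0.95, -0.55 and -0.22 in KO mice, a difference of -0.03 whose sign changed with quantile normalization (0.02). Eif2s3y and Kdm5d were dim in all mice, with levels between -7.08 and -3.40, and their differences also changed sign with the scaling (Eif2s3y from -0.48 to 0.35, Kdm5d from -0.19 to 0.44 with quantile normalization).

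No gene differed between KO and WT marrow in untreated mice at an adjusted p of 0.05. limma called 0 of 23747 genes (0%), and the smallest adjusted p was 0.404. At an unadjusted p under 0.05 there were 345 genes higher in KO mice (1.45%) and 2566 lower (10.8%). With slide as a block these counts became 208 higher and 112 lower, so the share of higher genes went from 11.9% to 65%. Since all WT arrays lie on slide 1, the fixed block leaves only KO_untreated 1 to set against the WT mice. Its difference is therefore the one within slide 1, with the same median of 0.06. The share of higher genes was 50.4% when each array was centred on its median gene and 30.4% after quantile normalization. Such centring also moved the median of all genes from -0.18 to 0.21, so small differences have no sign that is free of the scaling. Within slide 1, limma called 0 genes as well (0%), with 188 higher and 165 lower at an unadjusted p under 0.05 and a median of 0.06.

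When KO_untreated 2 and 3 alone were set against the WT mice, 1697 genes passed, 1682 of them lower (7.08%) and 15 higher (0.0632%). The 1682 lower genes had a median difference of -2.81 in those 2 mice and of -0.25 in KO_untreated 1, and KO_untreated 1 lay below all WT mice for 250 of them (14.9%). Of the 15 higher genes, KO_untreated 1 lay above all WT mice for 7 (46.7%), among them Hsph1, Chordc1 and Ankrd10. The others included Gucy2c, the receptor of guanylin in the gut, at 2.46 in KO_untreated 1 and at 3.78 and 3.42 in the KO mice of slide 2, against 2.23 to 2.78 in WT mice. KO_untreated 1 stayed within the WT range for that gene. These calls rest on a comparison between slides, and the difference between KO_untreated 1 and the other KO mice itself gave 0 calls in limma and 3143 genes at an unadjusted p under 0.05, 3064 of them higher in KO_untreated 1.

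All 3 KO mice lay above all 3 WT mice for 1460 genes (6.15%) and below them for 1555 (6.55%). Separation went with level: of 5937 genes in the brightest of the 4 bins, 689 were higher and 204 lower. In the dimmest bin 78 were higher and 601 lower. The counts over all genes depended on WT_untreated 3 most among the WT mice: without it they were 4603 and 7322. Without KO_untreated 1 they were 3635 and 9604, and without KO_untreated 2 the higher count was 2338. Genes that did not overlap and in addition differed at least 2-fold within slide 1 numbered 62 higher (0.261%) and 376 lower (1.58%). WT_untreated 3 was the WT mouse nearest to the KO mice for 44 of the 62 and for 304 of the 376. Of the 62 higher genes 41 were above background on all 6 arrays, against 152 of the 376 lower genes.

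Of the measured genes of the heat shock response, 5 of 12 were higher in every KO mouse than in any WT mouse, and none passed the adjusted threshold. These genes encode chaperones, which keep proteins folded, and are induced by the transcription factor HSF1 when proteins unfold. All KO mice lay below all WT mice for 1 member, and the shares over all genes were 6.15% above and 6.55% below. All 12 members were above background on all 6 arrays. In the brightest bin 689 of 5937 genes lay above and 204 below. The median difference was 0.46 over the members, 0.07 over the brightest bin and -0.18 over all genes. KO_untreated 1 had a median of 0.57 for these members, KO_untreated 2 of 0.38 and KO_untreated 3 of 0.42. At the gene level 5 members were higher at an unadjusted p under 0.05 in limma, beside 1.45% of all genes. The median stayed above 0 with quantile normalization (0.43), centring on the median gene (0.85) and normexp background correction (0.55). Leaving out WT_untreated 1, 2 or 3 gave 7, 6 and 7 members with all KO mice higher, beside 8.8%, 7.41% and 19.4% of all genes. Fewer mice make such separation easier.

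Hsph1, a chaperone of the HSP110 family that exchanges nucleotide on HSP70, had the highest moderated statistic among genes with a symbol and separated groups. Its levels were 1.94, 1.92 and 1.84 in the WT mice and 3.41, 3.11 and 3.34 in the KO mice. The WT mice thus lay close together, and every KO mouse lay more than 2-fold above them. The difference was 1.39 ± 0.23 (SE, adjusted p = 0.404), and within slide 1 it was 1.51 ± 0.31. Of the alternatives run, it passed the threshold only without KO_untreated 1 (adjusted p = 0.0259), a comparison between slides.

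Hspa8, the constitutive cytosolic HSP70, had levels of 6.06, 6.33 and 6.64 in WT mice and 7.06, 7.11 and 7.30 in KO mice. Its difference was 0.81 ± 0.23, with 0.72 within slide 1. Dnaja1, a J-domain partner of HSP70, read 4.07, 3.72 and 3.99 against 4.83, 4.57 and 4.42, with 0.91 within slide 1. For both genes all KO mice lay above all WT mice. Chordc1, a co-chaperone of HSP90 that was not on the list, read 0.99, 1.03 and 1.24 in WT mice and 1.85, 1.92 and 2.00 in KO mice. Its difference of 0.84 ± 0.21 was 0.77 within slide 1. Hspa1a, the inducible HSP70, differed by 1.53, and by 1.70 within slide 1, but its groups overlapped, with WT_untreated 3 far below the other mice. Hspb1, a small heat shock protein, went the other way and lay lower in all KO mice, by 1.52 on average and by 0.66 within slide 1, where KO_untreated 1 and WT_untreated 3 were almost equal at -1.84 and -1.82.

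**Figure D2:**
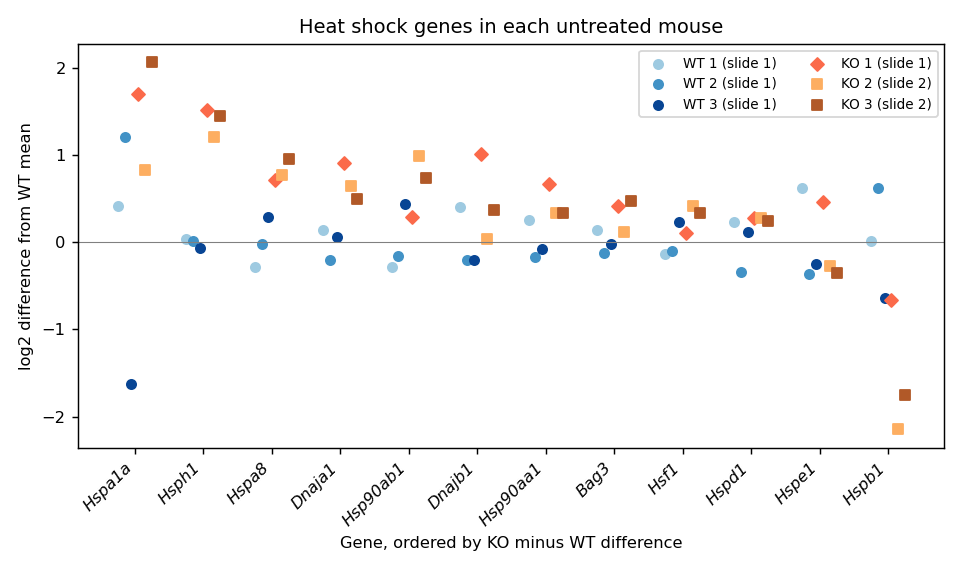
Each point is 1 untreated mouse, and the vertical axis gives its log2 difference from the mean of the 3 WT mice for each of the 12 measured heat shock genes on the horizontal axis. For Hsph1 the KO mice lie between 1.21 and 1.51 above the WT mean and the WT mice lie at it, whereas for Hspa1a and Dnajb1 the groups overlap.

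HSF1 binds repeats of nGAAn in alternating orientation, and promoters are shown for 2 list members with separated groups, Hsph1 and Dnaja1, and for Chordc1. The 150 bases before the transcription start were taken from RefSeq (GRCm38.p6), for the most upstream start of each gene listed, in the direction of the gene. Capitals mark the inverted repeats GAANNTTC or TTCNNGAA, which each read the same on both strands. They lie at chr5:149636337-149636486 on the minus strand for Hsph1, chr4:40722318-40722467 on the plus strand for Dnaja1 and chr9:18292117-18292266 on the plus strand for Chordc1.
Hsph1: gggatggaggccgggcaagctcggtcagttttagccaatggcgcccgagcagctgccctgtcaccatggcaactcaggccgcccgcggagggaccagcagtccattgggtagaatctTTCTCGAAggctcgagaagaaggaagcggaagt
Dnaja1: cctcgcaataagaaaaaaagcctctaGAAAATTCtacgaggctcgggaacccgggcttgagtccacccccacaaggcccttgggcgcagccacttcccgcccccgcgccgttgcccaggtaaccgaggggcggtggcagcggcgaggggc
Chordc1: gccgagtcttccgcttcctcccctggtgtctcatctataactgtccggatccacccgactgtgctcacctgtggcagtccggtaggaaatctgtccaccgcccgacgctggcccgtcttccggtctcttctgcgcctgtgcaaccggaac

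The Hsph1 and Dnaja1 stretches each held 1 match, and the Chordc1 stretch held none of these letters. The 2 other starts of Dnaja1 in the same table, further downstream, had no match in such a stretch either. In the 250 bases before the start, 7 of 13 promoters of the heat shock list held a match (53.8%), which belonged to 6 of the 8 genes with an entry. Over all promoters of the same length the share was 4218 of 32851 (12.8%). The list was written with knowledge of the genes' regulation, so these shares describe the list and test nothing.

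Other genes with the highest moderated statistics were also separated between the groups, and none passed the threshold (each at adjusted p = 0.404). Sgk1, a kinase induced by glucocorticoids and salt that regulates the epithelial sodium channel, had levels of 3.39, 4.28 and 3.46 in WT mice and 5.57, 5.04 and 5.77 in KO mice. The difference was 1.75 ± 0.50 (SE) and was 1.87 ± 0.40 within slide 1. Ggh, which removes glutamates from folates, read 5.34, 5.56 and 5.85 against 6.54, 6.47 and 6.403, with 0.96 within slide 1. Both genes were therefore higher in every KO mouse than in the WT mice, which all lay on slide 1. Trp53inp1, a p53-induced gene of autophagy, differed by 0.77 ± 0.23 and by 0.85 within slide 1, from WT levels of 2.73 to 2.88. Slc26a2, a sulfate transporter needed for sulfated mucus, differed by 0.88 and by 0.80 within slide 1. The adaptor Nck1 (0.71), Ankrd10 (1.18) and the potassium pump Atp12a (1.46) had within-slide differences of 0.58, 0.61 and 0.91. In the authors' deposited table, probes of Nck1 differed by 0.722 and 0.374, and probes of Ggh by 0.896 and 0.683.

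The highest differences within slide 1, among genes where all KO mice lay above all WT mice, included 2 genes already described, Sgk1 and Hsph1. Clu, a secreted chaperone, read -1.93, -0.34 and 0.64 in WT mice and 1.26, 0.68 and 1.07 in KO mice, so that KO_untreated 2 and WT_untreated 3 nearly met. Its within-slide difference was 1.81. Ffar4, a receptor for long-chain fatty acids on enteroendocrine cells, read -0.36, -0.75 and -0.01 in WT mice and 1.03, 1.25 and 0.41 in KO mice, with 1.41 within slide 1. Il18, an epithelial cytokine of the IL-1 family, read 2.41, 2.62 and 3.57 against 4.19, 4.35 and 4.05, with 1.32 within slide 1. Of the others, Cxcl5, Zfp560, Chodl, Higd1c and Ttpa were dim, with WT levels between -7.46 and -2.73. The within-slide difference of Chodl changed from 1.61 to -0.26 with normexp background correction.

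Among the genes with the lowest statistics, Fcer1g and Fam110a were above background on all 6 arrays, and their groups were separated. Fcer1g encodes the gamma chain shared by Fc receptors of mast cells, macrophages and natural killer cells. Its levels were 0.39, -0.56 and -0.13 in WT mice and -1.33, -1.83 and -2.04 in KO mice. Every KO mouse lay below every WT mouse, by 1.64 ± 0.33 on average (the log2 difference was -1.64, adjusted p = 0.404) and with -1.23 ± 0.47 within slide 1. Fam110a, a centrosome-associated protein, read 2.89, 3.76 and 2.56 in WT mice and 1.07, -0.22 and -0.13 in KO mice. Its difference was -2.83 ± 0.47, with -2.00 ± 0.45 within slide 1. In limma Fam110a passed with normexp background correction (adjusted p = 0.0118) and without KO_untreated 1 (adjusted p = 0.023). Fcer1g passed only without KO_untreated 1 (adjusted p = 0.0257). Leaving out that mouse makes a comparison between slides. The KO mouse of slide 1 lay between the WT mice and the KO mice of slide 2 for both genes.

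For Trim55, Amigo1, Ndnf, Ddx25 and Tmem52b the WT mice themselves were far apart. Trim55, a protein of the muscle sarcomere, read 2.72, 3.46 and -0.71 in WT mice and -2.16, -3.22 and -3.02 in KO mice. Amigo1, an adhesion molecule of neurons, read 1.16, 1.01 and -1.54 against -2.30, -3.64 and -4.01. WT_untreated 3 thus lay nearer to KO_untreated 1 than to the other WT mice for both genes. The clone AU018091 was above background in 2 of 3 WT mice and in 0 of 3 KO mice, at least 9.69-fold higher in WT mice (adjusted p = 0.404), with WT_untreated 3 at -6.02. Smr3a was above background in all WT mice and in 0 KO mice, at least 3.71-fold higher in WT mice (adjusted p = 0.404, with measured means -3.44 apart). The olfactory receptor probes Olfr805, Olfr218 and Olfr61, and the genes Ggt5 and Smcp, had 1 or 2 KO arrays above background.

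Of 9 measured adipocyte genes all KO mice lay below all WT mice for 5, and 1 WT mouse was far above all others for most of the list. No member passed the adjusted threshold, and 6 were lower at an unadjusted p under 0.05. The shares over all genes were 6.55% and 10.8%. For Lpl, Cidec, Lep and Retn the groups overlapped, for Lpl with KO_untreated 1 at -0.64 and WT_untreated 1 at -0.82. The median difference was -2.23, with -1.26 in KO_untreated 1. Adipoq, the hormone adiponectin of fat cells, read -3.18, 2.79 and -3.10 in WT mice and -4.81, -4.23 and -5.12 in KO mice. Cfd, the serine protease adipsin, read -0.59, 5.14 and -0.36 against -1.97, -2.32 and -3.12. The fatty acid carrier Fabp4 read 0.04, 5.91 and 0.57 against -0.42, -0.90 and -1.43. WT_untreated 2 held the high value in each case.

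Without WT_untreated 2 the median of the adipocyte list was -1.22, and -0.40 within slide 1. The difference of Adipoq became -1.58 from -3.55, and 5 members still had all KO mice lower, beside 8.96% of all genes then. The summed signal of the list, in units of the 75th percentile of each array, was 5.1 to 129 in WT mice and 2.98 to 4.14 in KO mice. Of the defining markers, Adipoq and Cfd were above background in all 6 mice.

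**Figure D3:**
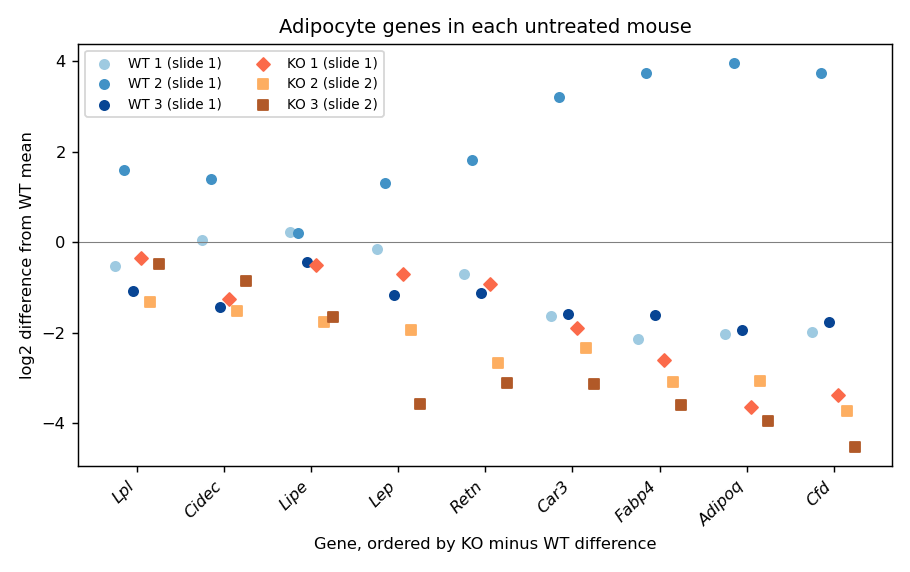
Each point is 1 untreated mouse, and the vertical axis gives its log2 difference from the mean of the 3 WT mice for each of the 9 measured adipocyte genes on the horizontal axis. WT 2 stands above all other mice for 8 genes, and the 3 KO mice lie below the 3 WT mice for 5.

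Genes of muscle and connective tissue were high in the same WT mouse. The smooth muscle list had a median of 1.32 above the WT mean in WT_untreated 2 and the fibroblast list of 1.27. All KO mice lay below all WT mice for 2 of 11 smooth muscle genes, Tagln and Cald1, and for 1 of 16 fibroblast genes, Thy1. The share over all genes was 6.55%. Tagln, an actin-binding protein of smooth muscle, read 3.32, 5.66 and 3.84 against 3.322, 2.30 and 2.67, so that KO_untreated 1 and WT_untreated 1 were equal to 2 decimals. Without WT_untreated 2 the median of the smooth muscle list within slide 1 was 0.07, against -0.46 with it. The share of muscle, fat or connective tissue in the scraped samples was not tested.

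Of the genes of immune cells described next, none passed the adjusted threshold. For 18 T and NK cell genes the median difference was -0.96, composed of -0.35, -0.99 and -1.43 in KO_untreated 1, 2 and 3. Over all genes of the dimmest bin the latter 2 mice had medians of -1.67 and -1.70, and over the next bin of -0.74 and -0.77. All KO mice lay below all WT mice for 4 of the 18 (among them Cd3d, Zap70 and Klrd1) and above for 0, beside 6.55% and 6.15% of all genes. Cd3d, a chain of the T cell receptor complex, read -1.59, -1.78 and -2.65 in WT mice and -2.78, -2.76 and -3.45 in KO mice, with -0.78 ± 0.61 within slide 1. WT_untreated 3 and the KO mice 1 and 2 lay close together. Gzma, a granule protease of cytotoxic cells, was low in 4 mice, with levels of -0.94, -1.05 and -3.68 in WT mice and -4.47, -3.18 and -4.78 in KO mice.

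The 15 measured B cell genes had a median of 0.45 in KO_untreated 1 and of -1.37 and -2.23 in the other KO mice, with all KO mice on 1 side of all WT mice for none. Ms4a1, the B cell surface antigen CD20, read -2.02, 0.74 and -1.95 in WT mice and 0.08, -2.63 and -4.24 in KO mice. WT_untreated 2 and KO_untreated 1 were thus the mice with high B cell transcripts. For 20 monocyte and macrophage genes the median was -0.51, with 0.07 within slide 1. All KO mice lay below all WT mice for 3 (Cx3cr1, Fcgr3 and Itgam) and above for 1 (Cd14), beside 6.55% and 6.15% of all genes. In the authors' deposited table, probes of Fcgr3 differed by -1.02 and -0.285, and probes of Itgam by -0.717 and -1.82. Cx3cr1, the fractalkine receptor of resident macrophages, differed by -1.75 ± 0.70 and by -0.64 ± 0.64 within slide 1. KO_untreated 1 and WT_untreated 3 had levels of -3.22 and -3.20.

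Of 11 mast cell genes, Cma1 and Cpa3 were lower in every KO mouse, beside 6.55% of all genes. Cma1, a chymase stored in mast cell granules, read 1.49, 0.92 and 0.70 in WT mice and 0.14, -0.14 and 0.10 in KO mice. Its difference of -1.003 ± 0.43 was -0.89 ± 0.41 within slide 1. Cpa3, the mast cell carboxypeptidase, was above background in 3 WT mice and 1 KO mouse, and its difference was -2.05, with -0.91 within slide 1. The summed signal of the mast cell list was 3.69 to 5.85 in WT mice and 2.7 to 4.04 in KO mice, so the ranges overlapped.

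Of 20 chemokine genes all KO mice lay below all WT mice for 5 and above for 1, which was Cxcl5, beside 6.55% and 6.15% of all genes. Ccl5, a T cell chemokine and the brightest of the 5, read 0.87, -0.17 and -0.79 in WT mice and -1.40, -0.82 and -1.60 in KO mice, with -1.37 within slide 1. WT_untreated 3 and KO_untreated 2 nearly met. Ccl8, a monocyte chemokine, read -1.94, -1.89 and -3.22 in WT mice and -3.34, -4.10 and -4.83 in KO mice, with -0.99 within slide 1. Ccl4 had a difference of -1.69, and of -1.14 within slide 1, with 2 KO arrays above background. Ccl3 and Cxcl2 were not well above background in any of the 6 mice and have no usable fold. Neutrophil genes had a median of -0.17 in KO_untreated 1, and the single member with separated groups, Cxcr2, was not well above background in any mouse. Nos2, the inducible nitric oxide synthase, read -3.85, -3.27 and -4.55 against -4.87, -6.23 and -5.79, with -0.98 ± 0.73 within slide 1.

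Interferon-stimulated genes showed 0 of 22 members with separated groups. Their medians were 0.86 in WT_untreated 1 and -0.77 in WT_untreated 3, and -0.25, 0.10 and -1.28 in the KO mice. Of the 17 immediate early genes, Fosb, Egr1 and Ier3 were lower in all KO mice, beside 6.55% of all genes. Egr1 read 1.28, 1.13 and 0.48 in WT mice and -0.71, 0.22 and 0.21 in KO mice, a difference of -1.05 ± 0.36, with -1.67 ± 0.42 within slide 1. The related Fos and Jun differed by -0.07 and 0.01, and the list's median was -0.27, beside -0.18 over all genes.

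**Figure D4:**
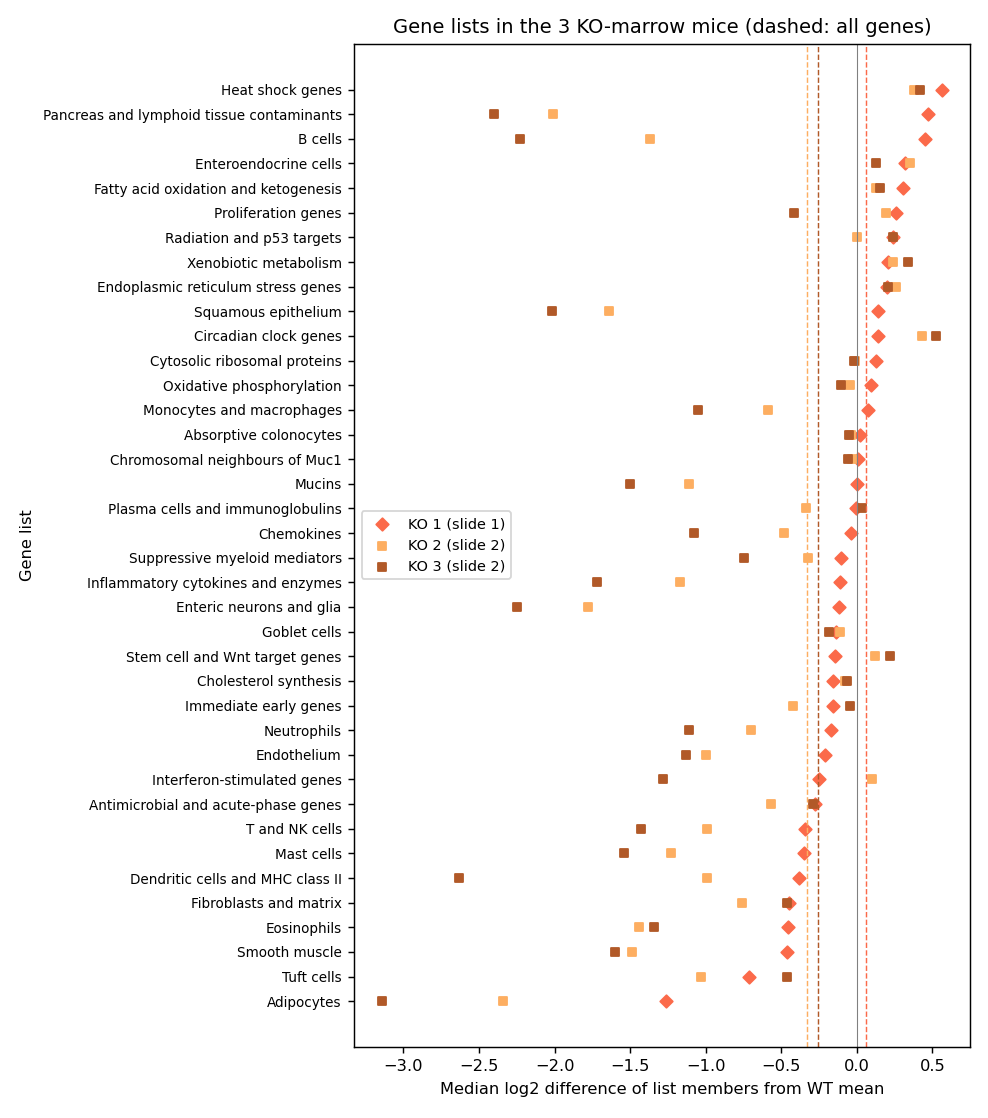
For gene lists with at least 5 measured members, each point gives the median log2 difference of the members from the WT mean (horizontal axis) in 1 KO mouse, with lists on the vertical axis in the order of KO 1. Dashed lines mark the medians of all genes, 0.06 for KO 1, -0.33 for KO 2 and -0.26 for KO 3. Heat shock genes lie highest in KO 1 and adipocyte genes lowest in all 3 KO mice.

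Genes of colonocytes were bright, and their medians were 0.02, -0.04 and -0.05 in KO_untreated 1, 2 and 3. Of 21 colonocyte genes 2 were higher and 1 was lower in all KO mice, beside 6.15% and 6.55% of all genes. The list's median of -0.07 turned to 0.05 with quantile normalization. Car1 differed by 0.73 ± 0.37 and by 1.02 ± 0.33 within slide 1. Slc26a3, the chloride-bicarbonate exchanger of the colon, differed by 0.53 ± 0.37 and by 0.36 within slide 1. Slc51b, the beta subunit of the bile acid exporter, read 3.23, 3.23 and 2.43 in WT mice and 2.22, 1.92 and 2.08 in KO mice, a difference of -0.89 ± 0.29 that was -0.74 within slide 1. Other members, such as the brush border protein Vil1 at 7.21 to 7.82, differed by -0.07.

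Enteroendocrine genes had a median of 0.26, with 0.32 within slide 1. Of 16 members 3 were higher and 1 was lower in all KO mice, beside 6.15% and 6.55% of all genes. Tph1, which makes serotonin, read 0.46, -0.37 and 0.13 against 0.56, 1.23 and 0.59, with 0.49 within slide 1. Chgb, a granule protein, read 6.00, 4.85 and 5.99 against 6.396, 6.24 and 6.06, so WT_untreated 2 was low for both. The neuropeptide Nts lay lower in all KO mice, by 2.08 on average (log2 difference -2.08), with -1.77 within slide 1. For it WT_untreated 3 at -4.26 and KO_untreated 3 at -4.46 were close.

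Of 15 stem cell and Wnt target genes, Cd44 and Notum were lower in all KO mice and none higher. The shares over all genes were 6.55% and 6.15%. Cd44 read 1.12, 1.19 and 0.93 in WT mice and 0.52, 0.11 and 0.59 in KO mice, a difference of -0.68 ± 0.40, with -0.56 within slide 1. Proliferation genes showed 0 of 21 members with separated groups and a median of -0.004. Of 11 tuft cell genes 1, Il25, was lower in all KO mice, beside 6.55% of all genes. The list's median was -0.79, with -0.71 within slide 1, beside -0.18 and 0.06 over all genes. Without WT_untreated 2 its median within slide 1 was -0.36. Without WT_untreated 1 or 3 it was -0.71 and -0.87.

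Of 19 genes of fatty acid oxidation and ketogenesis 6 were higher in all KO mice and 0 lower. Among all genes 6.15% were higher and 6.55% lower, and in the brightest bin 689 and 204 of 5937 genes. All 19 members were above background on all 6 arrays. The list's median was 0.21, with 0.31 within slide 1. Cpt1a, the carnitine palmitoyltransferase that admits fatty acids to mitochondria, read 2.77, 2.78 and 3.11 against 3.36, 3.64 and 3.89, with 0.47 within slide 1. Acadvl, the dehydrogenase of very long chains, read 5.72, 5.72 and 5.78 against 6.12, 6.00 and 6.12, a difference of 0.34 ± 0.18 that was 0.38 within slide 1. Acadl, the dehydrogenase of long chains, differed by 0.69, with 0.54 within slide 1.

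Of 16 genes of endoplasmic reticulum stress 5 were higher in all KO mice and 0 lower. Among all genes 6.15% were higher and 6.55% lower, and in the brightest bin 689 and 204 of 5937 genes. All 16 members were above background on all 6 arrays. The list's median was 0.23, with 0.20 within slide 1. Hspa5, the chaperone BiP of the endoplasmic reticulum, read 5.18, 5.04 and 5.36 in WT mice and 5.83, 5.62 and 5.67 in KO mice, with 0.64 ± 0.32 within slide 1. Pdia4, a disulfide isomerase, differed by 0.55, and Dnajb9, a co-chaperone of BiP, by 0.62 ± 1.18, an error that pools the spread of all 4 groups of the series. Xbp1, the transcription factor that drives many of these genes, read 1.48, 1.43 and 1.90 against 1.97, 2.69 and 2.48, with 0.36 within slide 1. KO_untreated 1 lay just above WT_untreated 3 for Xbp1.

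Of 20 circadian clock genes 2 were higher in all KO mice, among them Per1, beside 6.15% of all genes. At an unadjusted p under 0.05 in limma 4 were higher, beside 1.45% of all genes. The median was 0.14 in KO_untreated 1 and 0.43 and 0.53 in the other KO mice. Per1, a clock repressor that glucocorticoids also induce, read -0.36, -0.06 and 0.76 in WT mice and 0.86, 1.47 and 1.39 in KO mice, a difference of 1.13 ± 0.35, with 0.75 ± 0.48 within slide 1. The labels give no hour of sampling. Of 14 radiation and p53 target genes, 4 were higher in all KO mice, among them Trp53inp1, Polk and Btg2, and Sesn2 was lower. The shares over all genes were 6.15% higher and 6.55% lower. All 14 were above background on all 6 arrays. In the brightest bin 689 of 5937 genes were higher and 204 lower in all KO mice. Of 17 genes of xenobiotic metabolism 1 was higher in all KO mice, the drug exporter Abcb1a, beside 6.15% of all genes. Abcb1a read 1.93, 1.81 and 2.74 in WT mice and 2.97, 3.56 and 3.46 in KO mice, with 0.80 within slide 1.

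Of 23 cytosolic ribosomal protein genes 2 were higher in all KO mice, with a median of 0.03. Of 22 oxidative phosphorylation genes 2 were higher, and the share over all genes was 6.15%. The median of the oxidative phosphorylation genes was -0.05 and turned to 0.03 with normexp background correction. Genes of cholesterol synthesis had a median of -0.12, with 1 of 15 members lower in all KO mice, beside 6.55% of all genes. This median was 0.27 with centring on the median gene, which moved the median of all genes by a like amount, from -0.18 to 0.21.

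The remaining lists held few genes with separated groups. Among all genes 6.15% were higher and 6.55% lower in all KO mice. Of 16 mediators of suppressive myeloid cells, Kitl was higher in all KO mice, by 0.70 ± 0.30, but turned lower when its probes were averaged (-0.13). Stat3 was lower, at 4.22, 4.28 and 3.60 in WT mice and 3.21, 3.30 and 3.56 in KO mice, with -0.82 ± 0.36 within slide 1. WT_untreated 3 and KO_untreated 3 nearly met for Stat3. Of 8 plasma cell genes 2 were higher in all KO mice, Xbp1 and Ell2, and the difference of Ell2, 0.38, turned to -0.31 with its probes averaged. Of 15 genes of dendritic cells and MHC class II, 1 was lower, Batf3, at -0.31 within slide 1 and -1.64 ± 0.53 overall. Of 13 genes of enteric neurons and glia, Syt1 and Elavl4 were lower and Tac1 was higher in all KO mice. Of 12 endothelial genes Esam was lower, and of 9 squamous epithelium genes Sfn was higher, by 0.47, but by 0.08 within slide 1. Nos2 was the single such member among 16 antimicrobial genes, and Nos2 and Il18 were the members among 17 inflammatory cytokines and enzymes. The groups overlapped for all 13 goblet cell genes, 8 mucins, 6 eosinophil genes, 4 red blood cell genes and 7 genes of pancreas and lymphoid tissue. The last of these lists had a median of 0.47 in KO_untreated 1 and of -2.01 and -2.40 in the other KO mice. Each gene is given here by its brightest probe, and the dimmer Muc1 probe described above did separate the groups.

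The same contrast in mice given azoxymethane and dextran sodium sulfate gave 0 calls in limma (0%), with 231 genes at an unadjusted p under 0.05. The test of whether the marrow difference itself differed between untreated and treated mice also gave 0 calls (0%), with a smallest adjusted p of 0.897 and 829 genes at an unadjusted p under 0.05. The value of KO minus WT in treated mice was -0.05 for Hsph1, 0.85 for Sgk1, 0.04 for Fcer1g and 0.07 for Fam110a. For the untreated mice these 4 values were 1.39, 1.75, -1.64 and -2.83. Of the 62 higher genes without overlap and at least 2-fold apart within slide 1, 48 were also higher on average in treated KO mice. Their median there was 0.38. Of the 376 such lower genes 243 were also lower, with a median of -0.18. Over all genes the median in treated mice was -0.02. Whether these shares exceed that of all genes was not tested.

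The authors' deposited table, named as one of differentially expressed probes, gives group means for 2504 probes that could be matched to the arrays. Over these, its difference between KO_untreated and WT_untreated had a median of -0.16, with 81 probes at least 2-fold higher and 343 at least 2-fold lower. Its signs were the same as those computed here, from the same arrays, for 99.6% of probes. With KO_untreated 1 alone set against the WT mice, on slide 1, the signs were the same for 77.5%. In the authors' deposited table Sgk1 differed by 1.76, Fcer1g by -1.63 and the dimmer Muc1 probe by 1.23.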

How the data were processed

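Colon mucosa RNA of 12 chimeric mice, 1 per array, was measured on single-colour Agilent arrays (design 014868), and 6 untreated arrays form the comparison. The authors deposited linear spot intensities extracted with Feature Extraction 10.7.3.1, background-corrected and not scaled between arrays, per the file headers. The authors' log2 group means, also deposited, are centred per probe.

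Analysis ran under limma 3.58.1 (R 4.3.3). The log2 processed signal minus the array's 75th percentile was used, without control spots or outlier-marked spots. Probes had to be well above background in every mouse of some group, and the brightest kept probe stood for its gene. Symbols came from RefSeq names (GRCm38.p6, names and promoters only). This left 23747 genes, 14663 with a symbol. Of these, 1586 had a missing value on some array, and their fits used the arrays that remained. Group means were fitted to all 12 arrays with lmFit and eBayes (trend, 8 residual and 4.94 prior degrees of freedom), with Benjamini-Hochberg adjustment over all genes at 0.05. A second fit used slide 1 alone (2 residual and 7.35 prior degrees of freedom), where the lone KO array is assumed to vary like the WT arrays. Errors are model SEs, with n = 3 mice per group. The number of arrays limits the precision. The scripts were tested on simulated data.

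Where a gene was above background on no array of a group, the fold is "at least": the brighter mean against the dim group's higher of own signal and lowest signal among probes well above background. Named genes were Muc1, sex-linked genes, the 10 highest and 10 lowest statistics with separated groups (no gene passed the threshold), the 10 highest and 10 lowest within-slide differences, and up to 4 separated members of each of 40 lists. Genes named besides these, such as Ms4a1, Gzma, Ccl5, Lpl, Cidec, Lep, Retn, Hspa1a, Gucy2c, Vil1, Fos and Jun, were chosen after their values were seen. Members, lists and tests were chosen with earlier results of these data known. Alternatives were slide as a fixed or random block, slide 1 alone, a replicate block, other scalings, normexp background correction, filters, probe means and leaving out arrays. Normexp used the median spot signal in place of the planned mean spot signal. Some genes that these rules select are not reported here.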

Additional observations from a re-analysis of the deposited data

How the results depend on the processing

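The count of 0 called genes between KO and WT marrow was the same with slide as a fixed or random block, within slide 1, with a replicate block, with the 6 untreated arrays alone, under both other scalings, both other filters and with probe means. The fixed block and slide 1 alone are not separate checks, since both set only KO_untreated 1 against the WT mice. The count over all arrays became 2, both lower, with normexp background correction. Leaving out single mice gave 0 to 1666 calls, the highest without KO_untreated 1 (15 higher and 1651 lower). With slide as a random block (correlation 0.503) 31.1% of the genes at an unadjusted p under 0.05 were higher in KO mice, and 23.8% were with the filter on all 12 arrays. Within slide 1 the count became 21 with normexp, and 0 to 45 when single WT mice were left out (45 without WT_untreated 1, 24 without WT_untreated 2), with 1 residual degree of freedom; the cause was not tested.

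The replicate numbers were not taken to pair the mice. The correlations of deviations between same-numbered WT and KO mice were 0.42, -0.14 and 0.42, and the replicate block gave 0 calls, with 391 genes higher and 2200 lower at an unadjusted p under 0.05.

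Signs reversed as follows, and the cause was not tested. With probe means, Muc1 became 0.0515, Ell2 -0.31 and Kitl -0.13. Xist became 0.0234 with quantile normalization and 0.36 with centring on the median gene, Eif2s3y 0.72 with slide as a fixed block or alone, 0.13 with it as a random block and 0.35 with quantile normalization. Kdm5d became 0.57 with slide as a fixed block or alone, 0.30 with a random block, 0.44 with quantile normalization and 0.20 with centring. Leaving out single mice gave -0.20 to 0.20 for Xist, -1.11 to 0.17 for Eif2s3y and -0.57 to 0.18 for Kdm5d. Within slide 1, normexp turned Eif2s3y to -0.26, Kdm5d to -0.32, Chodl to -0.26 and Scg2 to -0.18, and quantile normalization turned Sfn to -0.0159. Genes below background limit every fold of dim genes.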

Other observations

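The genes in these paragraphs were chosen after their values were seen. Among goblet cell genes, the antimicrobial proteins secreted by these cells varied most. Retnlb, which acts on the bacteria of the mucus layer, read 8.64, 8.90 and 6.57 in WT mice and 1.96, 4.54 and 7.31 in KO mice. KO_untreated 3 thus lay above WT_untreated 3, and the other 2 KO mice lay far below all WT mice. The difference was -3.44, and -6.08 within slide 1. Ang4, an antimicrobial ribonuclease, had the same order, with 6.80, 7.06 and 4.94 in WT mice and 2.45, 3.93 and 5.68 in KO mice. Other goblet cell genes did not follow it: Zg16 was between 8.91 and 9.80 and Agr2 between 7.25 and 8.07 in all 6 mice.

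Probes for olfactory receptors, genes of the nose that are hardly used in the gut, made up part of the dim genes. Of 884 receptors on the array 582 passed the background filter and were tested, and 1 group alone could satisfy that filter. Of these 582 none was higher in all KO mice and 42 were lower in all of them. Among all genes 6.15% were higher and 6.55% lower, and in the dimmest of 4 bins 78 and 601 of 5937 genes. When KO_untreated 2 and 3 were set against WT mice, 200 receptors were called lower, beside 7.08% of all genes and 900 of 5937 in the dimmest bin. Their median difference from the WT mean was -0.04 in KO_untreated 1, -2.14 in KO_untreated 2 and -2.45 in KO_untreated 3, beside -0.06, -1.67 and -1.70 for all genes of the dimmest of 4 bins. Among the WT mice it was 0.40, 0.15 and -0.53.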
